A study of Mus musculus with 4 samples.

Results

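The 46 genes described here act in mitosis or at the passage from G2 into it, and were measured in mouse embryonic fibroblasts that carried either a telomerase transgene or an empty vector. They were chosen by name, as known cell cycle genes, but with earlier results of these data known. Every probe set annotated with exactly 1 symbol among them was taken. Of the 46 genes, 42 had such a probe set, 79 probe sets in all, out of the 22690 on the array. For 39 genes at least 1 probe set passed the filter, a present call on at least 2 of the 4 arrays, of either group. Bub1b, Kif4 and Cdc25c had probe sets but none that passed, and Kif20b, Espl1, Ccnb1 and Cdca8 had no probe set with 1 symbol and are not analysed here.

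RNA came from 4 samples, each hybridised to 1 Affymetrix MOE430A array. In the 2 mTert samples the fibroblasts had been infected with the retroviral vector pBabePuro carrying the catalytic subunit of mouse telomerase, and in the 2 control samples with pBabePuro alone, so both groups share viral infection and a puromycin resistance gene. The labels give no embryo, strain, passage or time after infection, and do not say whether arrays of a group came from separate cultures. The p-values therefore reflect nothing beyond the variation among these 4 samples, part of which may be technical. Signals are intensities in arbitrary units after scaling to a common level. A difference is the mean log2 signal of mTert minus that of control. Its standard error (SE) comes from limma, which fits a linear model to every probe set and pools their variances.

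Cells that divide switch on a shared set of genes late in the cycle. Cyclin B with the kinase Cdk1 drives entry into mitosis, kinesin motors and their partners build and position the spindle, the checkpoint proteins hold back separation until every chromosome is attached, and the anaphase-promoting complex then removes cyclin B and securin. Many of these genes are kept off in resting cells and on in cycling ones through a short promoter element, the cell cycle homology region, often with CCAAT boxes upstream of it. Their RNA is therefore widely used as a measure of how many cells in a culture are dividing. In RNA from a whole culture, more dividing cells and more RNA per dividing cell cannot be told apart.

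The promoters of the list show what its members have in common outside the arrays. RefSeq promoter sequences (GRCm38.p6, 250 bases before to 50 after the start of the gene) were at hand for 38 of the 46 members. The element's core, written TTTGAA or TTTAAA and searched on both strands, was in the window of 30 of the 38 members (78.9%), against 1377 of 6050 genes tested on the arrays that have such a sequence (22.8%). TTTGAA alone was in 27 members (71.1%, against 14.4% of those genes), and CCAAT, also on both strands, was in 29 (76.3%, against 42.9%). The 38 include members not tested on the arrays. Among tested members with a sequence, 24 held the core and 8 did not. TTTAAA reads the same on both strands, and no CCAAT match shares a letter with a match to the core in the stretches printed here. A match is a description of the letters, not a binding site. The 90 bases before the start site of 6 members, read along the gene's strand, show the arrangement, with the matches to either motif in capitals (ATTGG and TTCAAA are the same motifs on the opposite strand). The first 5 were chosen because they hold both motifs, and the last because Kif18a had the largest difference among the members.
Cdk1, chr10:69352913-69353002, minus strand: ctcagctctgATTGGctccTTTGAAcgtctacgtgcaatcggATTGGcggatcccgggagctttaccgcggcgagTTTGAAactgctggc
Cdc20, chr4:118437344-118437433, minus strand: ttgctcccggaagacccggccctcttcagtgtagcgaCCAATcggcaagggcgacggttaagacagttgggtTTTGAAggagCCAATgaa
Ube2c, chr2:164769839-164769928, plus strand: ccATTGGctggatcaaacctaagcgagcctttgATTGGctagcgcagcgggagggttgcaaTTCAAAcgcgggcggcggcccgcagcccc
Top2a, chr11:99024190-99024279, minus strand: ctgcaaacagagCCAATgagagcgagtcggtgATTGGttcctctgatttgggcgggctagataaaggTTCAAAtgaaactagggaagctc
Kif22, chr7:127042421-127042510, minus strand: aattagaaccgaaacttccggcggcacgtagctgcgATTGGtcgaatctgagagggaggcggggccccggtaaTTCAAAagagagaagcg
Kif18a, chr2:109280648-109280737, plus strand: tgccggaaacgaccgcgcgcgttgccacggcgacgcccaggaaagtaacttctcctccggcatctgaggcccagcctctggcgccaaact
In Cdk1, Cdc20, Ube2c, Top2a and Kif22 a CCAAT match, on either strand, stands upstream of a TTTGAA match, whereas these letters are not in the stretch of Kif18a.

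Tert itself was read in every sample first, as a check of the labels. Its signals were 1165 and 845 in mTert 1 and mTert 2, both called present, against 128 and 84.7 in control 1 and control 2, both called absent. Signals called absent bound the control level only from above, so the fold from the mean log2 signals is written as at least 9.53-fold higher with the transgene (limma adjusted p = 0.188, which misses 0.05). Between 51.6% and 54.4% of probe sets were called present per array. Control 1 was hybridised with 5 µg of cRNA, and the remaining arrays with 15 µg. The 3'/5' signal ratio of the actin control lay at 1.16 and 1.20 on the mTert arrays, against 1.22 and 1.14 on the control arrays. All 13 fibroblast markers on the array were present in all samples, with summed signals of 108416 and 106657 in mTert and 112967 and 109911 in control. The 15 macrophage markers summed to 4202 in mTert 1 and 18131 in mTert 2, against 3688 in control 1 and 17534 in control 2. They separate the arrays numbered 1 from those numbered 2 and overlap between the groups, and their part in the results was not tested. Log2 signals correlated at 0.984 between mTert 1 and control 1 and at 0.984 between mTert 2 and control 2. Within mTert and within control the correlation was 0.971. No replicate term was used, so any difference by number is part of the SE and p-values given here. Of the 7 endothelial and 6 epithelial markers, 5 of each list were present on no array.

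The comparison of mTert with control asked whether fibroblasts with telomerase differ in the RNA of mitotic genes. The members lay mostly on the higher side, by small amounts. Of the 39 members tested, 33 had a higher and 6 a lower mean in mTert, against 3875 higher and 3512 lower among the 7387 genes tested, each gene read by its brightest probe set. The median difference was 0.13 for the members (quartiles 0.03 and 0.18), a 1.09-fold higher signal, and 0.0076 for all genes. At a limma adjusted p of 0.05, 0 members were called, and 0% of all probe sets (0 of 12396). The limma adjusted p of every member was 1.00. At an unadjusted limma p under 0.05, 1 of the 39 members passed, Kif18a, where 2.21% of all genes did. That count is near the share over all genes. Both mTert signals lay above both control signals for 9 members (23.1%, against a background of 13.8% of all genes), and both lay below for 2 (5.13%, against 11.7%). In the remaining 28 members the groups overlapped. The members were chosen with earlier results of these data known, so these counts are a description. Tacc3, among the 33 higher members, passed the filter only through the mTert arrays.

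**Figure D1:**
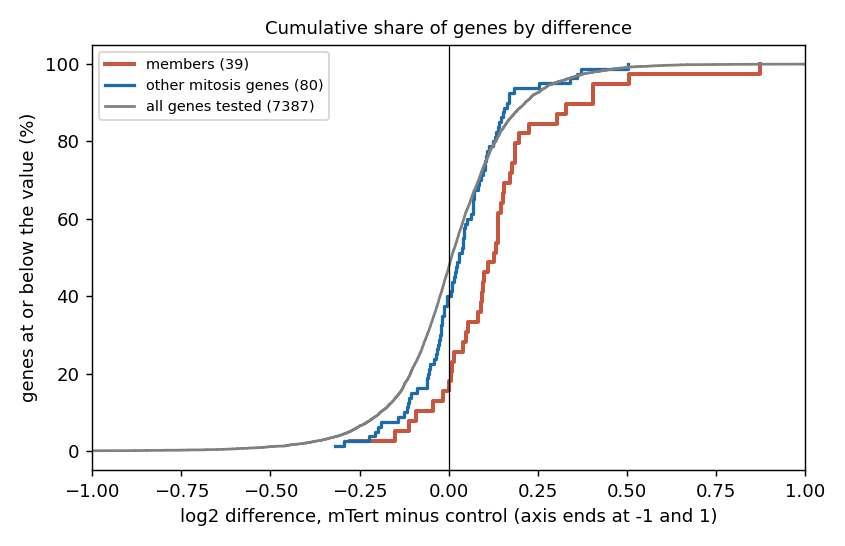
Cumulative share of genes (vertical axis, percent) at or below each log2 difference, mTert minus control (horizontal axis, drawn from -1 to 1), for the 39 members, 80 other mitosis genes and all 7387 genes tested. The curve of the members lies to the right of the other curves over most of its length, with its median at 0.13 against 0.028 and 0.0076.

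Single arrays carried much of this shift. Control 2 gave the lowest of the 4 signals in 22 of the 39 members (56.4%), where it was lowest in 23.6% of all genes. The mTert 2 array gave the highest in 21 members (53.8%), against 27.2% of all genes. Taken pair by pair, 32 of 39 members were higher in mTert 2 than in control 2, with a median of 0.19, where 50.6% of all genes were. But 19 of 39 were higher in mTert 1 than in control 1, with a median of -0.0071, where 52.4% of all genes were. The count was 26 for mTert 1 over control 2 (median 0.12, against 49.7% of all genes higher). It was 27 for mTert 2 over control 1 (median 0.077, against 53.8% of all genes higher). Without control 2 the median of the members was 0.03 with 24 higher, and without mTert 2 it was 0.06 with 24 higher. Without control 1, the array with less cRNA, it was 0.16 with 30 higher, and without mTert 1 it was 0.16 with 32 higher.

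**Figure D2:**
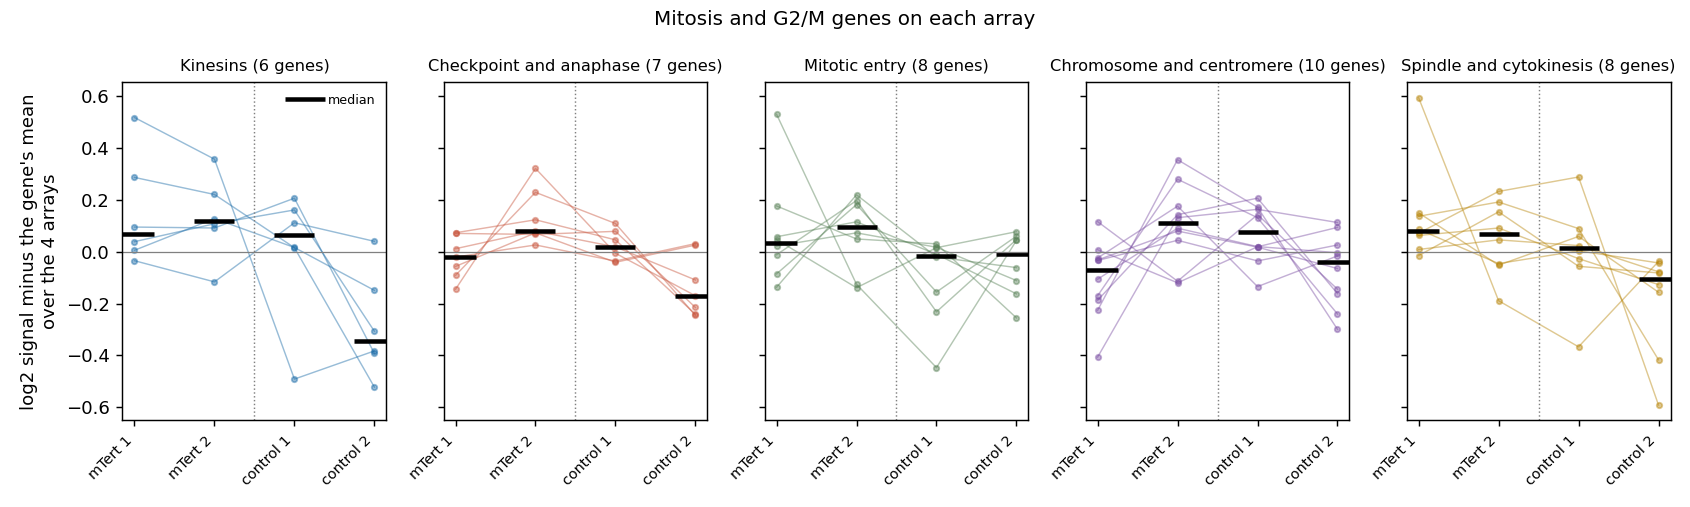
Log2 signal of each tested member minus its mean over the 4 arrays (vertical axis), for mTert 1, mTert 2, control 1 and control 2 (horizontal axis), in 1 panel per role; each thin line joins the values of 1 gene and black marks are medians. The medians of the kinesins, the checkpoint and anaphase genes and the spindle and cytokinesis genes are lowest in control 2.

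Kinesins are motors that walk along or take apart microtubules. Of the 6 kinesins tested, 5 had a higher and 1 a lower mean in mTert, with a median of 0.17. That median was -0.019 without control 2 and 0.43 without control 1, so its direction rests on control 2. Kif18a, which dampens chromosome oscillations at the plus ends of spindle microtubules, had signals of 169 and 152 in mTert 1 and mTert 2, against 84.2 and 90.8 in control 1 and control 2. Both mTert signals were higher than either control signal, by more than the gap within each group. The difference was 0.87 (SE 0.23, 95% interval 0.32 to 1.43), or 1.83-fold, with an unadjusted limma p of 0.0081 and a limma adjusted p of 1.00. It was between 0.79 and 0.95 with any single array left out. The probe set was called present on 3 arrays and marginal in control 2, and it is the only one for this gene. This size was known when the list was drawn up, and it is given as a description.

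Kif20a, a motor of the central spindle needed for cytokinesis, had signals of 276 and 263 in mTert, against 228 and 157 in control. The groups did not overlap, although the control arrays lay far apart, and the difference was 0.51 (SE 0.23). It stood at 0.24 without control 2. Kif22, which binds chromosome arms, had 1015 and 1104 in mTert and 1022 and 912 in control, a difference of 0.13 (SE 0.13). The name of that probe set ends in _x_at, a kind that can match more than 1 transcript. The other tested probe set of Kif22, ending in _s_at, stood at -0.019 (SE 0.25). Its signals were lower (means of 99.7 in mTert and 101 in control). The remaining one was called absent on all 4 arrays. Kif23, the motor of the centralspindlin complex, had 317 and 317 in mTert and 343 and 226 in control. Its mTert signals lay between the controls, control 2 was called absent, and its difference of 0.19 (SE 0.23) became -0.11 without control 2. Kif2c, which depolymerises microtubules at centromeres, stood at 0.15 (SE 0.21) and its other tested probe set at 0.33. Kif11, the motor that pushes the spindle poles apart, was the 1 kinesin on the lower side: 283 and 268 in mTert, against 314 and 298 in control, a difference of -0.15 (SE 0.16). Its other probe sets stood at -0.0038 and -0.15. The signals of Kif4, a chromosome motor, were 387 and 343 in mTert, against 286 and 335 in control, but only control 1 was called present and it was not tested.

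**Figure D3:**
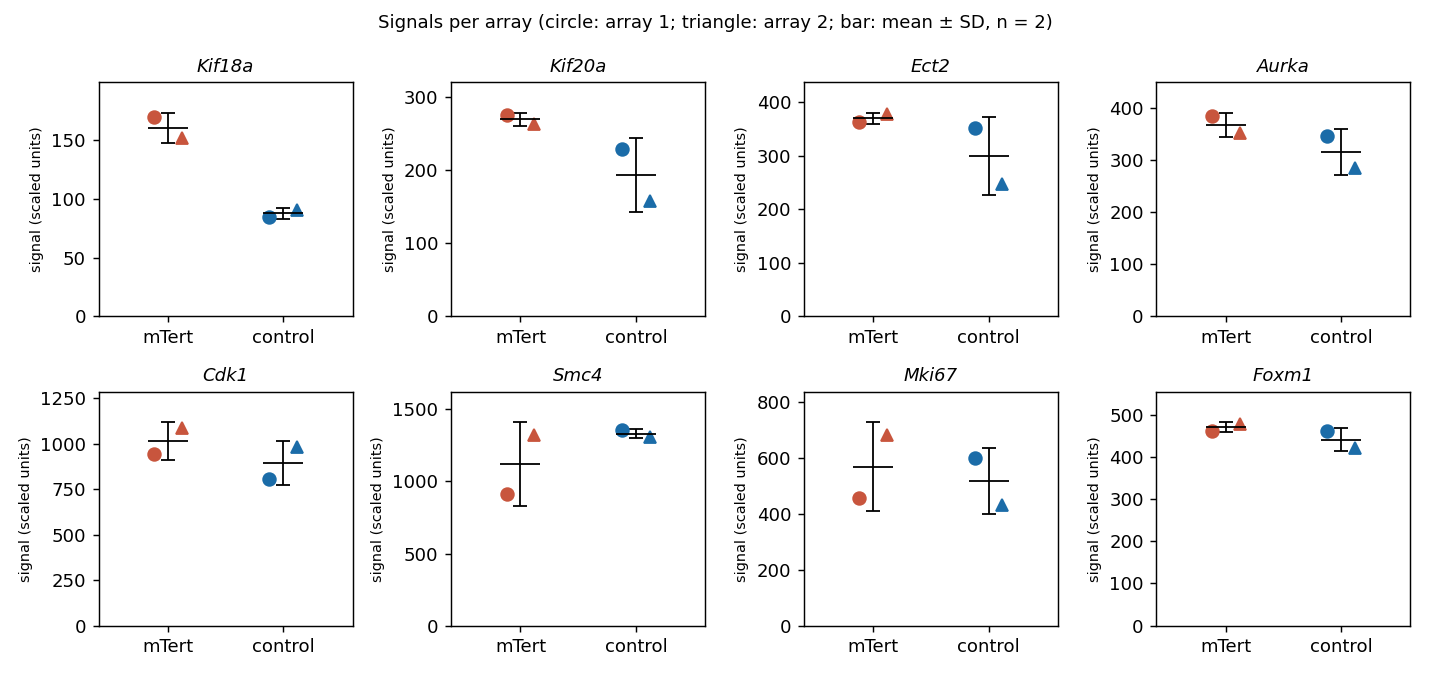
Signals in scaled units (vertical axes start at 0) of Kif18a, Kif20a, Ect2, Aurka, Cdk1, Smc4, Mki67 and Foxm1 on each array, mTert left of control; circles are arrays numbered 1, triangles arrays numbered 2, and black bars the mean ± SD of 2 arrays. The mTert signals of Kif18a lie well above both controls, those of Mki67 overlap with the controls, and mTert 1 alone is low for Smc4.

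The spindle assembly checkpoint and the anaphase machinery gave 7 tested genes, all with a higher mean in mTert, with a median of 0.14. That median was -0.018 without mTert 2, 0.039 without control 2 and 0.26 without control 1, so its direction rests on mTert 2. Ube2c, the ubiquitin-conjugating enzyme of the anaphase-promoting complex, had 769 and 797 in mTert, against 755 and 619 in control. Both mTert signals were higher than the controls, but mTert 1 exceeded control 1 by little, and the difference of 0.20 (SE 0.15) became 0.05 without control 2. Bub3, which carries checkpoint kinases to kinetochores, had 2295 and 2406 in mTert and 2306 and 2111 in control, a difference of 0.09 (SE 0.10). Its groups overlapped, and its other tested probe set stood at -0.0043.

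Cdc20, the activator of the anaphase-promoting complex, had 861 and 859 in mTert and 866 and 706 in control by its brightest probe set, a difference of 0.14 (SE 0.15). Its other tested probe set read 618 and 767 in mTert and 902 and 632 in control, a difference of -0.13 (SE 0.21). The direction for Cdc20 therefore depends on the probe set. For Bub1, a checkpoint kinase, one probe set read 242 and 302 in mTert and 277 and 217 in control, a difference of 0.14 (SE 0.21), and the other stood at -0.36 (SE 0.40). Ttk, the kinase at the head of the checkpoint, had 194 and 268 in mTert and 214 and 191 in control, a difference of 0.18 (SE 0.23). The mTert 2 signal alone was high, mTert 1 was called absent, and without mTert 2 the difference was -0.06. Mad2l1, the inhibitor of Cdc20, stood at 0.02 (SE 0.14), and Pttg1, which encodes securin, at 0.0049 (SE 0.10). Bub1b, which also inhibits Cdc20, had 332 and 397 in mTert and 361 and 315 in control, and was called absent on all 4 arrays. Leaving out probe sets whose names end in _s_at or _x_at, which can match more than 1 transcript, moved the median of this group to 0.016.

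Regulators of entry into mitosis included 8 tested genes, 7 with a higher and 1 with a lower mean in mTert, with a median of 0.13, which was 0.075 without mTert 2 and 0.089 without control 2. Cdk1, the kinase that drives mitosis, had 941 and 1088 in mTert, against 808 and 980 in control. Each mTert signal exceeded the control of the same number, yet the groups overlapped, and the difference was 0.19 (SE 0.15, 95% interval -0.19 to 0.56). Its partner cyclins stood at 0.10 (SE 0.15) for Ccna2 and 0.08 (SE 0.17) for Ccnb2.

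Aurka, a kinase of centrosomes and spindle poles, had 384 and 351 in mTert, against 347 and 285 in control, a difference of 0.23 (SE 0.18). Plk1, a kinase acting at most steps of mitosis, had 412 and 429 in mTert, against 393 and 354 in control, a difference of 0.17 (SE 0.15). In both genes the groups did not overlap, with mTert 2 of Aurka close to its control 1. Foxm1, the transcription factor that activates many genes of this list, had 462 and 478 in mTert and 460 and 421 in control, a difference of 0.09 (SE 0.14). Both mTert signals were above the controls, though mTert 1 and control 1 nearly met, and the other tested probe set of Foxm1 stood at -0.13. Nek2, a kinase that separates centrosomes, had 235 and 149 in mTert and 119 and 168 in control. Only mTert 1 was high, on an array where the probe set was called absent, and the difference was 0.40 (SE 0.30). Cdc25b, a phosphatase that activates Cdk1, stood at -0.09 (SE 0.14), and Cdc25c was called absent on all 4 arrays.

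Chromosome and centromere proteins centred on 0. Of the 10 genes tested, 6 had a higher and 4 a lower mean in mTert, and their median was 0.0060, close to the 0.0076 of all genes. By their brightest probe sets, 0 of the 10 had both mTert signals above both controls, where 13.8% of all genes did. Both lay below in 1 (10%, against 11.7% of all genes). Both lay above in 2 of 6 kinesins, 1 of 7 checkpoint and anaphase genes, 3 of 8 entry regulators and 3 of 8 spindle and cytokinesis genes. Both lay below in 1 kinesin and in 0 genes of those other roles. With so few genes these counts do not set the group apart. Without an array the median lay between -0.081 and 0.093, on the lower side without control 2 or mTert 2. The difference between this group and the other roles was not tested. Smc4, the condensin subunit that compacts chromosomes, had 913 and 1325 in mTert, against 1355 and 1308 in control, by its brightest probe set. The mTert 1 signal alone was low, and the difference was -0.28 (SE 0.19). Another probe set of Smc4 read 1124 and 1275 in mTert and 1119 and 1104 in control, on the other side at 0.11 (SE 0.12), while the remaining one stood at -0.24 (SE 0.21). Smc2, its partner in condensin, had 569 and 777 in mTert and 701 and 542 in control, a difference of 0.11 (SE 0.21).

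Mki67, the coat protein of mitotic chromosomes whose product Ki-67 marks dividing cells, had 454 and 680 in mTert and 599 and 432 in control. The groups overlapped widely, with mTert 2 highest and mTert 1 just above control 2, and the difference of 0.13 (SE 0.25) had a 95% interval from -0.49 to 0.74. It was -0.11 without control 2 and -0.16 without mTert 2. Top2a, the topoisomerase that untangles sister chromatids, had 922 and 1059 in mTert and 854 and 927 in control, a difference of 0.15 (SE 0.13). Cenpe, a kinetochore motor, had 52.1 and 47.7 in mTert, against 52.5 and 55.3 in control, both mTert signals lower, with a difference of -0.11 (SE 0.32). The chromosomal passenger proteins, which correct faulty attachments, stood near 0: Aurkb at 0.0099 (SE 0.16, and 0.32 by its other tested probe set), Birc5 at -0.02 (SE 0.13) and Incenp at -0.04 (SE 0.20). The same held for the centromere histone Cenpa at 0.05 (SE 0.15) and the kinetochore protein Cenpf at 0.0020 (SE 0.18).

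Spindle assembly and cytokinesis genes gave 8 tested members, all with a higher mean in mTert, with a median of 0.15, which was 0.046 without control 2. Ect2, the exchange factor that activates RhoA at the cleavage furrow, had 363 and 377 in mTert, against 352 and 248 in control. The mTert signals were the 2 highest, but control 1 was close to them, and the difference of 0.33 (SE 0.21) became 0.07 without control 2. Racgap1, which binds Ect2 and forms centralspindlin with Kif23, had 579 and 590 in mTert, against 544 and 508 in control, a difference of 0.15 (SE 0.14), and its other tested probe set stood at -0.06. Tacc3, which stabilises spindle microtubules, had 432 and 251 in mTert and 222 and 279 in control. The mTert 1 signal alone was high, and the difference was 0.40 (SE 0.29). Neither control was called present, so this probe set passed the filter only through the mTert arrays. The other tested probe set of Tacc3 stood at 0.0095 (SE 0.25).

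Tpx2, which activates Aurka on the spindle, had 443 and 496 in mTert and 515 and 280 in control. Control 2 alone was low, and the difference of 0.30 (SE 0.29) became -0.14 without that array. Nusap1, a microtubule-bundling protein, had 346 and 389 in mTert, against 336 and 330 in control, a difference of 0.14 (SE 0.16). Its second probe set read 90.9 and 68.1 in mTert and 125 and 94.6 in control, and stood at -0.47 (SE 0.29), although both controls were called absent and both mTert arrays present. Anln, which anchors the contractile ring, stood at 0.10 (SE 0.15), the spindle protein Hmmr at 0.05 (SE 0.15, and 0.05 and 0.36 by its other tested probe sets) and the midzone bundler Prc1 at 0.04 (SE 0.13).

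**Figure D4:**
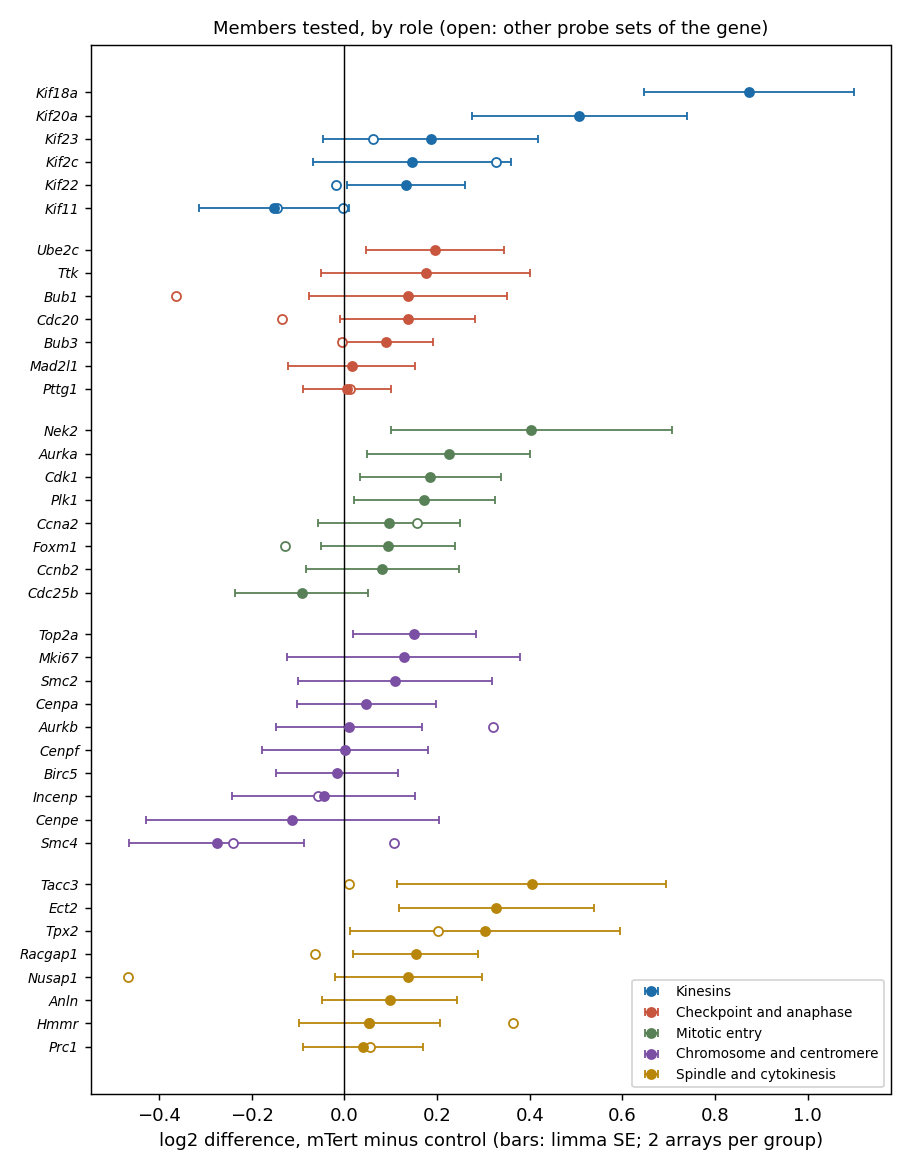
Log2 difference, mTert minus control (horizontal axis), of the 39 tested members by role (rows); filled points are the brightest probe set with the SE of limma, open points the other tested probe sets of the gene. Points lie mostly right of 0 in all roles but chromosome and centromere, and Kif18a at 0.87 is farthest right.

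Several members were read by more than 1 tested probe set, all on the same RNA. Of 19 such genes, all probe sets lay on the higher side in 9 (Aurkb, Ccna2, Hmmr, Kif23, Kif2c, Prc1, Pttg1, Tacc3 and Tpx2) and on the lower side in 2 (Incenp and Kif11). They disagreed in the other 8, namely Bub1, Bub3, Cdc20, Foxm1, Kif22, Nusap1, Racgap1 and Smc4. Agreement here is in sign only. The share of agreeing genes among all genes with several probe sets was not computed, so these counts are a description. Both probe sets of Pttg1 stood near 0, at 0.0049 and 0.013. So did a probe set each of Aurkb (0.0099), Tacc3 (0.0095) and Kif11 (-0.0038). Over all 61 tested probe sets of the members 44 were higher and 17 lower in mTert, with a median of 0.09. Tested members with a TTTGAA or TTTAAA core in the promoter window, such as Cdk1 and Top2a above, had a median of 0.13 over 24 genes, and those with a promoter sequence but no core, such as Kif18a, 0.14 over 8.

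Other mitosis genes, listed by function, lay closer to all genes than the members did. Their list differs in kind from that of the members, with subunits of cohesin and of the anaphase-promoting complex, and the contrast was not tested. Of 80 other mitosis genes tested, 48 had a higher and 32 a lower mean in mTert, with a median of 0.028, and 0 were called at a limma adjusted p of 0.05. That median was -0.0094 without control 2. Both mTert signals lay above the controls for 10 of them (12.5%, against 13.8% of all genes) and below for 5 (6.25%, against 11.7%). The medians by function ran from -0.01 over 19 spindle and centrosome genes to 0.07 over 13 condensin and cohesin genes. In between came 14 subunits and regulators of the anaphase-promoting complex at 0.03, 17 kinetochore genes at 0.06 and 17 entry regulators and G2/M transcription factors at 0.01. The smallest p among them belonged to Cenpb, which binds centromeric DNA, with 491 and 491 in mTert, against 404 and 362 in control, a difference of 0.36 (SE 0.15). The groups of Cenpb did not overlap. The spindle regulator Ndel1 stood at 0.37 (SE 0.16), the cohesin acetyltransferase Esco1 at 0.50 (SE 0.29), Nde1, a relative of Ndel1, at -0.32 (SE 0.22) and Anapc11, the catalytic RING subunit of the anaphase-promoting complex, at -0.14 (SE 0.11).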

How the data were processed

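RNA of 2 mTert and 2 control samples was hybridised to 1 Affymetrix MOE430A array each; groups and numbers come from the sample titles. Per the file headers, the deposited tables hold an intensity on a linear scale for every probe set, with a present, marginal or absent call and a detection p-value, of which the calls served as a filter. Which program produced them is not given in the sources at hand. Trimmed means of the deposited intensities, without 2% at either end, ranged over 498.593 to 498.779. Gene names came from GEO's platform annotation.

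Arrays were rescaled to the same trimmed mean of all probe sets other than controls. The 1 value of 0 was replaced by its array's lowest signal called present, and log2 was taken. Dropping 64 control probe sets and those present on fewer than 2 of 4 arrays left 12396, among them 7387 genes with 1 symbol. Groups were tested by limma 3.58.1 (R 4.3.3) through lmFit and an eBayes step with an intensity trend. No replicate term was used. The Benjamini-Hochberg adjustment covered all 12396 probe sets, at a threshold of 0.05. A gene was read by its brightest probe set, whose name ended in _s_at or _x_at for 8 of the 39 members tested. The fold of Tert compares mean log2 signals. It is a lower bound because both control signals were called absent, and both exceed their arrays' lowest signal called present, so no floor was applied. With 2 arrays a group, precision is limited by their number. Limma was tested on simulated data for this comparison (12396 probe sets, 200 changed in each of 20 runs). It called 2.8% of changes by 0.5 in log2, 41.7% of those by 1, 87.8% of those by 2 and 96.2% of those by 3. The simulated errors were independent between arrays, whereas the deviations of real arrays of the same number correlated at 0.37. Each run also held 200 changed probe sets, whereas 0 of 12396 were called in the real data. Tert, at 3.25, was not called there either, so these shares may be too high for these arrays.

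The members, roles, the 130 symbols of other mitosis genes and the tests were chosen with earlier results of these data known. Signals per array are given for the 5 members of each role with the smallest p and for Mki67 and Foxm1, and 5 other mitosis genes with the smallest p are named. Values of the remaining members, outside that rule, were added after they were seen, so that each tested member has one. Alternatives were quantile normalization, no rescaling, log2(signal + 32), other filters on calls, no intensity trend, the mean of a gene's probe sets, a replicate block and leaving out each array. Leaving out probe sets ending in _s_at or _x_at was chosen after seeing the data.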

Additional observations from a re-analysis of the deposited data

How the results depend on the processing

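No member was called by limma at an adjusted p of 0.05 under any alternative run. With all 4 arrays the median of the members ran from 0.097 to 0.13, and 28 of 34 were higher on probe sets present on all arrays, which leave out Kif18a, Kif23, Nek2, Tacc3 and Ttk. With a replicate block limma called 18 of 12396 probe sets, 3 higher and 15 lower, among them no member (smallest adjusted p 0.688). Tert was then called (limma adjusted p = 9.6e-08). Arrays of the same number share only a number in the labels, though their deviations from the group means correlated at 0.37 across probe sets. With the mean of a gene's probe sets Bub1 stood at -0.11, Foxm1 at -0.017, Nusap1 at -0.16 and the checkpoint and anaphase median at 0.016. Without probe sets ending in _s_at or _x_at that median was also 0.016, with Cdc20 at -0.13 and Bub3 at -0.0043. The median of mitotic entry was 0.096 both with no filter on calls and on probe sets present on all arrays. The cause of these changes was not tested.

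With 1 array left out, a fit in which the lone array of a group is assumed to vary like the others, the count of members higher ran from 24 to 32 and their median from 0.030 to 0.16. Members with all mTert signals above numbered 13 to 24 (33.3% to 61.5%, against 30.7% to 34.9% of all genes), and below 4 to 9 (10.3% to 23.1%, against 28.6% to 30.4%). Medians ran from -0.019 to 0.43 for kinesins, -0.018 to 0.26 for checkpoint and anaphase, 0.075 to 0.18 for mitotic entry, -0.081 to 0.093 for chromosome and centromere, 0.046 to 0.20 for spindle and cytokinesis and -0.0094 to 0.050 for other mitosis genes. Signs changed for Kif23 (-0.11 to 0.49), Cdc20 (-0.0099 to 0.28), Bub1 (-0.040 to 0.31), Ttk (-0.057 to 0.41), Smc2 (-0.12 to 0.33), Mki67 (-0.16 to 0.42) and Tpx2 (-0.14 to 0.74). Of the 25 members singled out by role, 15 kept their sign under all alternatives in which they were tested. Among the 15, Kif18a, Nek2 and Tacc3 were not tested on probe sets present on all arrays. Kif22 was not tested without probe sets ending in _s_at or _x_at. In the simulated data a difference of 0.5 was seldom called (2.8%), a share that may be too high for these arrays.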
